A study of Mus musculus with 6 samples.

Results

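The HSP70 chaperones and their transcriptional activator *Hsf1* were described in RNA-seq of STRA8+ cells from the mouse testis. The set was chosen by gene symbol and holds 10 of the 54532 genes in the expression table. Its members are the heat-inducible *Hspa1a* and *Hspa1b*, the testis forms *Hspa1l* and *Hspa2*, the constitutive cytosolic *Hspa8*, the HSP110-type *Hspa4* and *Hspa4l*, *Hspa5* of the endoplasmic reticulum (ER), mitochondrial *Hspa9*, and *Hsf1*. The rule itself uses the symbol and no measured value, but the set was drawn up with earlier results of these data known. *Hspa1l*, *Hspa2* and *Hspa4l* were lower in cKO than in Control cells in every setting tried, and *Hsf1* was lower as tested but kept its call in 9 of 15 alternatives. No member passed the test in the other direction, and 22.2% of all genes tested were lower.

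Both groups consisted of germ cells of the testis that were isolated as STRA8+ cells. The Control group had 3 libraries with the genotype Cre, and the cKO group had 3 libraries with the genotype *Srsf1* knockout. SRSF1 is a splicing factor of the serine/arginine-rich family. All 6 libraries carried the same treatment label of a conditional knockout, so the groups were taken from the genotype and the title. The promoter that drives Cre, the age of the animals, the number of animals per library and the way in which STRA8+ cells were isolated are not given in the sources used here. Nothing in the labels says that the libraries of a group came from separate animals, so the p-values measure only the spread between these samples, which may be technical. Expression was given in FPKM, a count of fragments corrected for gene length and library size, which allows levels to be compared between genes.

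HSP70 proteins bind exposed hydrophobic stretches of other proteins and release them in a cycle of ATP hydrolysis and nucleotide exchange. J-domain proteins deliver clients and stimulate hydrolysis, whereas HSP110 proteins and BAG domain proteins exchange the nucleotide. HSF1 is the factor that binds heat shock elements and induces HSP70 genes such as *Hspa1a* and *Hspa1b* in stressed cells, whereas *Hspa5* is induced by ER stress through an element of its own. Male germ cells are known to add forms of their own, since HSPA2 appears in meiotic spermatocytes, where it is required for completing meiosis, and HSPA1L appears in spermatids.

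The inducible pair and *Hspa1l* lie next to each other in the major histocompatibility complex region, and their start regions are shown because the 3 neighbours had different values in these cells. The files use GRCm38. In the annotation, *Hspa1b* (chr17:34956436-34959238) and *Hspa1a* (chr17:34969190-34972156) are single-exon genes on the minus strand, 9951 bases apart. *Hspa1l* (chr17:34972703-34979285) runs on the plus strand, has 2 exons of which 1 holds coding sequence, and starts 546 bases from *Hspa1a*, head to head. They encode 642, 641 and 641 residues, respectively. The 150 bases before each start, taken from RefSeq (GRCm38.p6) and written 5′ to 3′ on the gene's strand, cover chr17:34972157-34972306 for *Hspa1a*, chr17:34959239-34959388 for *Hspa1b* and chr17:34972553-34972702 for *Hspa1l*. Capitals mark a match to the heat shock element GAANNTTC and to the CCAAT box, which reads ATTGG where it lies on the opposite strand. The last line gives 30 bases of *Hspa5* on the plus strand, chr2:34772019-34772048, with the ER stress response element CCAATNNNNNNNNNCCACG in capitals.
Hspa1a: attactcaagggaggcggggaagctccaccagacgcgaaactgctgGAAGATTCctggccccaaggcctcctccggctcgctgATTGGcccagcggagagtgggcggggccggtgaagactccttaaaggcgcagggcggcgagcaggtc
Hspa1b: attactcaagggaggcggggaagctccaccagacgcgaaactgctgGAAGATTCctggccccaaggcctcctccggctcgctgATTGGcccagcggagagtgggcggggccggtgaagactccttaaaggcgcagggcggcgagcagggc
Hspa1l: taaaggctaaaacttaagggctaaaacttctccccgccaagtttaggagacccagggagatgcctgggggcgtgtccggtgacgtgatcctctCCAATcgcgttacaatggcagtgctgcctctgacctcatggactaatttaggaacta
Hspa5: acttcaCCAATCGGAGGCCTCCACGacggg

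The stretches of *Hspa1a* and *Hspa1b* were identical at 149 of 150 bases. Each held a heat shock element that begins 104 bases before the start and a CCAAT box 67 bases before it. The stretch of *Hspa1l* held neither GAANNTTC nor TTCNNGAA, and its CCAAT box began 57 bases before the start. RefSeq windows from 250 bases before to 50 after a start were matched for 7 of the 10 members. Among the 32851 windows of all genes, 15.1% held at least 1 of these heat shock elements on either strand, 37.4% held a CCAAT box and 0.119% held the ER stress response element. The window of *Hspa2* held a CCAAT box 29 bases before the start, and those of *Hspa4* and *Hspa4l* held none of the motifs searched, which also included TGACGTCA and TATAAA. A match describes letters only.

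The deposited FPKM rested on 15364511 to 17310353 fragments per Control library and on 14447887 to 15326722 per cKO library. *Srsf1* itself was at 84.7, 45.2 and 51.9 FPKM in Control and at 5.08, 4.94 and 5.17 FPKM in cKO replicates 1 to 3, which was 8.36% of the Control mean. *Stra8*, after which the cells were isolated, was at 222.1 to 261.7 FPKM in Control and 242.1 to 312.7 FPKM in cKO. Marker calls are read against the shares of all genes tested, 22.2% lower and 11.8% higher. Markers of early meiotic prophase summed to 968 to 1260 FPKM in Control and 964 to 1251 FPKM in cKO, with 2 of 10 lower, near that share. The 10 pachytene markers summed to 950 to 1148 FPKM in Control and 171 to 189.5 FPKM in cKO, and 8 of them were lower and 1 higher. The 10 spermatid markers summed to 2510 to 8418 FPKM in Control and 6.50 to 8.88 FPKM in cKO, and all 10 were lower. Of the pachytene and spermatid markers, only *Pgk2* and *Adam3* were at 0, in cKO replicates 1 and 2. A pair of libraries stood apart in marker levels. Spermatid markers in Control replicate 2 were 3.32-fold the mean of the other Control libraries, as were Leydig cell markers (3.33-fold, at a summed 13.98 FPKM against 5.45 and 2.95 FPKM), and macrophage and blood markers were 1.66-fold. Sertoli cell markers in cKO replicate 1 were 2.16-fold the mean of the other cKO libraries, with 8 of 8 markers highest there. Sertoli markers summed to 36.6 to 52.6 FPKM in Control and 31.5 to 78.7 FPKM in cKO, and 1 of the 7 tested was higher, near the share of all genes. Peritubular and endothelial markers summed to 7.32 to 9.74 FPKM in Control and 11.02 to 14.5 FPKM in cKO, so that the groups did not overlap, and 0 of the 2 tested passed.

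All 10 members passed the filter of a mean of at least 1 FPKM. *Hspa1l*, with a cKO mean of 0.614 FPKM, passed it through Control only and could not have been called higher. In a limma test on log2(FPKM + 1) with Benjamini-Hochberg (BH) adjustment over these 15451 genes, 4 of 10 members were lower in cKO, against 22.2% of all genes tested, and 0 were higher, against 11.8%. In either direction the share was 4 of 10 against 34%. The Control and cKO libraries did not overlap for 5 of 10 members, against 50.4% of all genes tested, so the members stood close to the background by this measure. The median difference was 0.05 on the log2 scale for the members and -0.01 for all genes. Quantile normalisation, which forces all libraries to the same distribution, moved the median of all genes to 0.21 and turned 1821 higher and 3437 lower genes into 5164 higher and 2527 lower genes. Under it 1 member, *Hspa1b*, was higher and 3 were lower, without *Hsf1*.

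**Figure D1:**
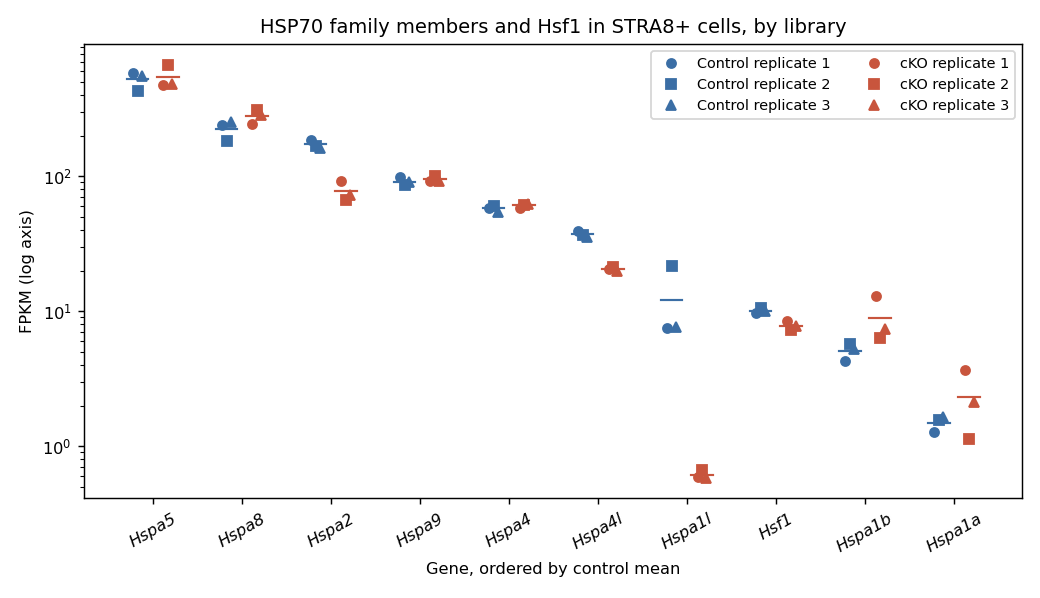
FPKM of the 9 HSP70 genes and *Hsf1* in each library on a log axis, ordered by the Control mean, with Control in blue, cKO in red, 1 symbol for each replicate and a line at each group mean (n = 3). The cKO points of *Hspa2*, *Hspa4l*, *Hspa1l* and *Hsf1* all lie under the Control points, and those of *Hspa1b* all lie above them.

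The heat-inducible genes were the least abundant of the cytosolic forms in Control cells. *Hspa1b* was at 4.29, 5.68 and 5.28 FPKM in Control replicates 1 to 3 and at 12.9, 6.36 and 7.44 FPKM in cKO replicates 1 to 3. The groups did not overlap, and cKO replicate 1 was 1.87-fold the mean of the other cKO libraries. The means were 5.08 ± 0.716 and 8.89 ± 3.49 FPKM (SD, n = 3), and the difference of 0.65 ± 0.24 (SE) on the log2(FPKM + 1) scale did not pass the test (limma BH-adjusted p = 0.076, 95% interval 0.09 to 1.22). Without cKO replicate 1 the difference was 0.38 (limma BH-adjusted p = 0.11). Without cKO replicate 2 it was 0.84 and passed (limma BH-adjusted p = 0.046), and under quantile normalisation it was 0.92 and passed (limma BH-adjusted p = 0.015). The summed peritubular and endothelial markers were also higher in every cKO library than in every Control library, and their part in the values of *Hspa1b* was not tested.

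*Hspa1a* encodes nearly the same protein. It was at 1.27, 1.56 and 1.64 FPKM in Control and at 3.65, 1.13 and 2.13 FPKM in cKO replicates 1 to 3, and the groups overlapped because cKO replicate 2 was the lowest of all 6 libraries. The difference was 0.34 ± 0.28 (SE, limma BH-adjusted p = 0.39, 95% interval -0.32 to 1.00), and 0.06 without cKO replicate 1. Between 49 and 170 fragments stood behind each value. The genes share 47.1% of the 100-base windows of *Hspa1a* and 49.9% of those of *Hspa1b*, so how reads were divided between them is uncertain. In cKO replicate 1, *Hspa1a* was 2.24-fold and the small heat shock protein gene *Hspb1* was 2.30-fold the mean of the other cKO libraries, beside the 2.16-fold higher Sertoli markers. The part of Sertoli cells in these values was not tested.

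*Hspa1l*, the form of postmeiotic cells, had the largest difference of the 10 members. It was at 7.49, 21.5 and 7.62 FPKM in Control replicates 1 to 3 and at 0.592, 0.663 and 0.586 FPKM in cKO replicates 1 to 3, where 22 to 24 fragments were counted. Every cKO library was below every Control library, and Control replicate 2 was 2.84-fold the mean of the other Control libraries. The cKO mean was 5.03% of the Control mean, a 19.9-fold difference in FPKM that was 12.3-fold without Control replicate 2, and *Hspa1l* fell by 2.87 ± 0.37 (SE) on the log2(FPKM + 1) scale (limma BH-adjusted p = 0.0012). Without Control replicate 2 the difference was -2.41 (limma BH-adjusted p = 3.3e-05). In that same library spermatid markers were 3.32-fold and Leydig markers 3.33-fold the mean of the other Control libraries. Spermatid markers summed to at most 8.88 FPKM and Leydig markers to 6.34 to 10.7 FPKM in the cKO libraries. The part of either cell type in the values of *Hspa1l* was not tested. In bulk RNA, fewer cells of a type and less RNA per cell cannot be told apart. Most of the 100-base windows of *Hspa1l* (70.8%) also occur in the antisense gene *Gm10501*, which was at 0.329 to 0.607 FPKM over the 6 libraries. Whether strand was used in counting is not given in the sources used here, so reads of the pair cannot be told apart, and the cKO level of *Hspa1l* was of the same size as that of *Gm10501*.

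**Figure D2:**
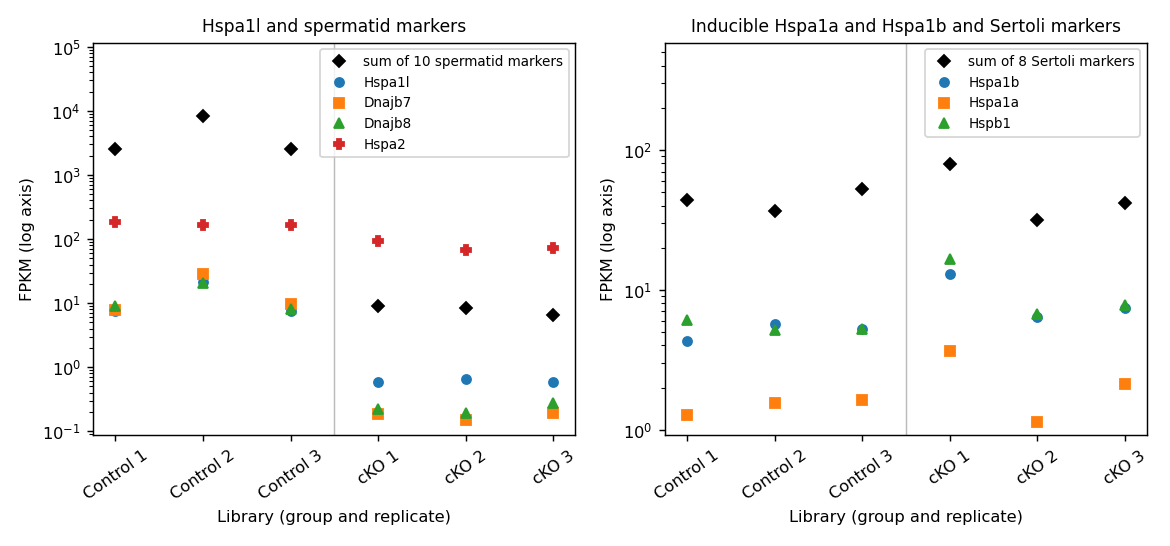
FPKM on a log axis in each library, with the spermatid marker sum, *Hspa1l*, a pair of J-domain genes and *Hspa2* on the left and genes that stood apart in cKO replicate 1 on the right; black diamonds are summed markers and coloured symbols are single genes. On the left, *Hspa1l*, *Dnajb7* and *Dnajb8* were highest in Control replicate 2, as was the marker sum of 8418 FPKM, and *Hspa2* was at 167.7 FPKM there. On the right, *Hspa1b*, *Hspa1a*, *Hspb1* and the Sertoli sum of 78.7 FPKM were highest in cKO replicate 1.

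*Hspa2* (chr12:76404176-76406938, with 1 exon and 633 residues in its longest coding transcript) was the third most abundant of the 9 HSP70 transcripts in Control cells. It was at 186.8, 167.7 and 162.7 FPKM in Control and at 91.7, 67.1 and 72.8 FPKM in cKO replicates 1 to 3. The groups were well separated, with cKO replicate 1 nearest to Control. The means were 172.4 ± 12.7 and 77.2 ± 12.9 FPKM (SD, n = 3), so 44.8% of the Control level was present in cKO cells, and *Hspa2* fell by 1.16 ± 0.12 (SE) on the log2(FPKM + 1) scale (limma BH-adjusted p = 5.2e-04). In Control replicate 2, *Hspa2* was 0.960-fold the mean of the other Control libraries. The pachytene marker sum of cKO libraries was under that of every Control library as well, and its part in the fall of *Hspa2* was not tested. All of the windows of *Hspa2* were found in no other gene.

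Genes tied to the work of HSPA2 were given by a list of 7, of which 3 (42.9%) were lower, 1 (14.3%) was higher and 3 did not pass. Of all genes tested, 22.2% were lower and 11.8% were higher. *Tnp1* and *Tnp2*, counted as lower, passed the filter through Control only. HSPA2 is a chaperone for CDK1 in spermatocytes and for transition proteins in spermatids, and SHCBP1L is a spindle protein that forms a complex with it. *Shcbp1l* was at 38.3, 37.9 and 33.8 FPKM in Control and at 13.4, 13.6 and 16.95 FPKM in cKO, and fell by 1.27 (limma BH-adjusted p = 1.7e-04). *Cdk1* itself was at 7.30 to 8.81 FPKM in Control and 9.44 to 9.65 FPKM in cKO and did not pass the test (limma BH-adjusted p = 0.097), whereas *Ccnb1*, which encodes its cyclin, rose by 0.56 (limma BH-adjusted p = 0.015). The call of *Ccnb1* was lost without Control replicate 1, Control replicate 3 or cKO replicate 1, at limma BH-adjusted p of 0.052 to 0.053. *Ccnb2* and *Cdc25c* differed by 0.18 and 0.11 and did not pass (limma BH-adjusted p = 0.11 and 0.66). The transition protein genes *Tnp1* and *Tnp2*, which also belong to the spermatid markers, were at 321.1 to 1205 and 707.9 to 2648 FPKM in Control and at 0.452 to 1.02 and 0.356 to 0.863 FPKM in cKO.

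*Hspa4l*, an HSP110-type gene known for its high level in the testis, was separated cleanly between the groups. It lies at chr3:40744495-40796103, and its longest coding transcript has 19 exons and encodes 838 residues. It was at 39.0, 36.6 and 35.7 FPKM in Control and at 20.4, 21.2 and 20.0 FPKM in cKO. Both groups were tight, with means of 37.1 ± 1.67 and 20.5 ± 0.596 FPKM (SD, n = 3). The cKO mean was 55.3% of the Control mean, and *Hspa4l* fell by 0.82 ± 0.07 (SE, limma BH-adjusted p = 1.4e-04). Pachytene markers also summed to less in every cKO library than in every Control library, and their part in this fall was not tested.

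Its widely expressed relative *Hspa4* (chr11:53259814-53300457, 19 exons, 842 residues) did not follow it. *Hspa4* was at 58.5, 60.2 and 54.3 FPKM in Control and at 58.4, 60.9 and 62.7 FPKM in cKO, and the groups overlapped. The difference was 0.07 ± 0.07 (SE, limma BH-adjusted p = 0.45), with a 95% interval of -0.09 to 0.23. The ratio of *Hspa4* to *Hspa4l* was 1.501, 1.64 and 1.52 in Control and 2.86, 2.87 and 3.13 in cKO libraries. This ratio does not depend on a factor per library, and the groups did not overlap (exact two-sided permutation test, p = 0.1, the smallest that 3 against 3 libraries can give; 0.133 after BH adjustment over 4 ratios).

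*Hspa8*, the constitutive chaperone of the cytosol, was second to *Hspa5* in both groups. It was at 240.9, 182.9 and 249.9 FPKM in Control and at 242.8, 311.3 and 283.9 FPKM in cKO replicates 1 to 3. The groups overlapped, with Control replicate 2 the lowest and cKO replicate 2 the highest. The difference of 0.32 ± 0.15 (SE) did not pass the test (limma BH-adjusted p = 0.14, 95% interval -0.03 to 0.67), and without Control replicate 2 it was 0.18. Part of the *Hspa8* sequence (26.3% of windows) also occurs in the gene *Gm26825*, which was at 0 FPKM in every library.

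The organelle forms differed little. *Hspa5*, the BiP chaperone of the ER, was at 583.4, 428.8 and 553.2 FPKM in Control and at 471.9, 669.6 and 485.0 FPKM in cKO. The lowest value was that of Control replicate 2 and the highest that of cKO replicate 2, and the groups overlapped. The summed early prophase markers were likewise lowest among Control in replicate 2 and highest among cKO in replicate 2, at 1260, 968 and 1167 FPKM in Control and 986, 1251 and 964 FPKM in cKO replicates 1 to 3, and their part in the values of *Hspa5* was not tested. The difference was 0.05 ± 0.18 (SE, limma BH-adjusted p = 0.85) with an interval of -0.37 to 0.47, and its sign depended on the replicate 2 libraries, being -0.09 without that of Control and -0.11 without that of cKO. *Hspa9*, which encodes the mitochondrial mortalin, was at 98.0, 85.8 and 90.1 FPKM in Control and at 91.9, 100.6 and 92.2 FPKM in cKO. Its difference was 0.06 ± 0.08 (SE, limma BH-adjusted p = 0.60) with an interval of -0.13 to 0.24. Under quantile normalisation the differences of *Hspa4*, *Hspa5* and *Hspa9* were 0.16, 0.17 and 0.15, in a fit whose median over all genes was 0.21.

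*Hsf1* (chr15:76477422-76501913, with 13 exons and 477 residues in its longest coding transcript) had the smallest of the differences that passed. It was at 9.74, 10.5 and 10.1 FPKM in Control and at 8.42, 7.29 and 7.75 FPKM in cKO, on 758 to 1240 fragments per library. The highest cKO library was below the lowest Control library. The cKO mean was 77.3% of the Control mean, and *Hsf1* fell by 0.34 ± 0.09 (SE, limma BH-adjusted p = 0.023, 95% interval -0.54 to -0.13). This call was lost without either of 2 Control libraries (replicates 2 and 3) or 2 cKO libraries (replicates 2 and 3), with differences of -0.34 to -0.29 and limma BH-adjusted p from 0.052 to 0.080. It was also lost with the replicate number as a block in the model (difference -0.34, limma BH-adjusted p = 0.095). Under quantile normalisation *Hsf1* differed by -0.10 (limma BH-adjusted p = 0.36), which was -0.32 relative to the median of all genes.

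**Figure D3:**
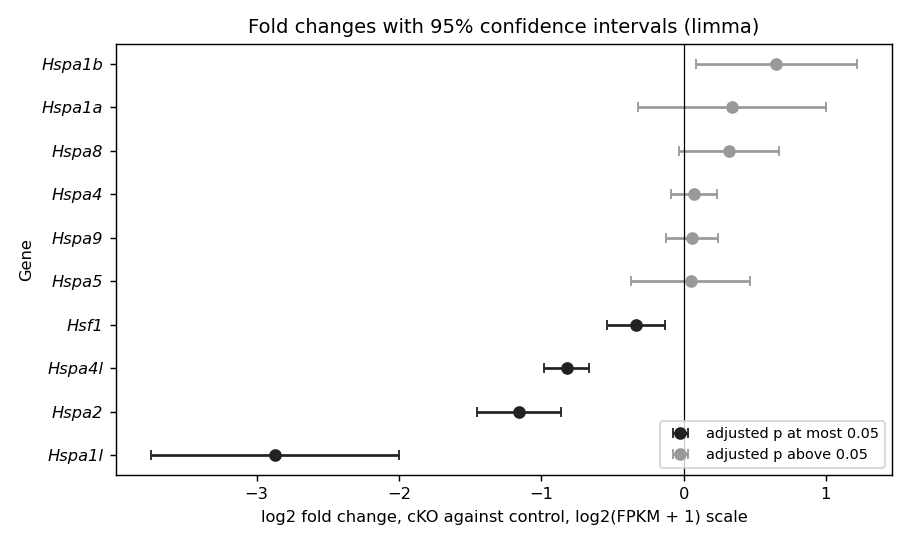
Difference between cKO and Control on the log2(FPKM + 1) scale for each member, with 95% confidence intervals from limma (n = 3 per group); black points passed a BH-adjusted p of 0.05 and grey points did not. *Hspa1l* at -2.87, *Hspa2* at -1.16, *Hspa4l* at -0.82 and *Hsf1* at -0.34 lie left of 0, and *Hspa1b* at 0.65 has an interval above 0 but did not pass after adjustment.

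Levels were ordered by mean FPKM, which is per length. In Control cells the order of the means was *Hspa5*, *Hspa8*, *Hspa2*, *Hspa9*, *Hspa4*, *Hspa4l*, *Hspa1l*, *Hsf1*, *Hspa1b* and *Hspa1a*, from 521.8 to 1.49 FPKM. The ranges of neighbours in this order overlapped for *Hspa8* with *Hspa2* and for *Hspa1l* with *Hsf1*, and not elsewhere. In cKO cells *Hspa9* stood above *Hspa2*, and *Hspa1l* was the lowest member. There the neighbours *Hspa1b* and *Hsf1* overlapped and the others did not. The range of *Hspa2* in cKO libraries, up to 91.7 FPKM, ended just below that of *Hspa9*, which began at 91.9 FPKM.

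Summed over the 9 HSPA genes, the level did not separate the groups, whereas the shares of some members did. The sum was 1220, 991 and 1161 FPKM in Control and 994, 1239 and 1027 FPKM in cKO replicates 1 to 3 (means 1124 ± 119 and 1087 ± 133 FPKM, SD; exact two-sided permutation test, p = 1). *Hspa2* made up 15.3%, 16.9% and 14.02% of this sum in Control libraries and 9.22%, 5.42% and 7.09% in cKO libraries, a difference of -8.18 percentage points between the means. *Hspa8* made up 19.8%, 18.5% and 21.5% in Control and 24.4%, 25.1% and 27.7% in cKO, a difference of 5.81 percentage points. For both genes every cKO library lay on the same side of every Control library. The shares of *Hspa4l* (3.33 ± 0.329% and 1.90 ± 0.177%, SD, n = 3) and *Hspa1l* (1.15 ± 0.884% and 0.0567 ± 0.00303%) were likewise apart, and the difference for *Hspa1l* went from -1.09 to -0.579 percentage points without Control replicate 2. For each of these 4 genes the exact two-sided permutation test gave p = 0.1, the smallest possible, and 0.225 after BH adjustment over the 9 shares, so the design could not bring a single share past 0.05. The shares of the other 5 genes overlapped between the groups.

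When the organelle forms *Hspa5* and *Hspa9* were left out of the sum, *Hspa8* made up 43.8 ± 5.02% of the remaining 7 genes in Control and 62.0 ± 5.11% in cKO, and *Hspa2* made up 33.8 ± 2.04% and 17.3 ± 3.61% (SD, n = 3). The ratio of *Hspa8* to *Hspa2* was 1.29, 1.09 and 1.54 in Control and 2.65, 4.64 and 3.90 in cKO libraries. That of *Hspa1b* to *Hspa1l* was 0.573, 0.265 and 0.693 in Control and 21.7, 9.59 and 12.7 in cKO. Both ratios had groups apart (exact two-sided permutation test, p = 0.1, and 0.133 after BH adjustment over 4 ratios). For *Hspa1b* to *Hspa1l* this had to be so, since the groups of each gene were already apart, in opposite directions. The ratio of *Hspa1b* to *Hspa1a* overlapped (3.23 to 3.64 in Control and 3.50 to 5.64 in cKO, exact two-sided permutation test, p = 0.3).

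**Figure D4:**
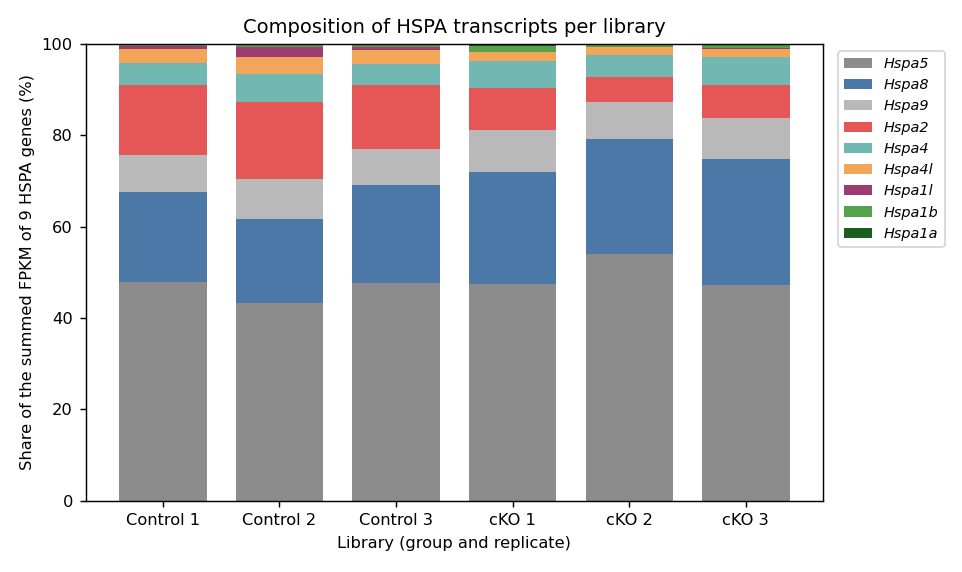
Share of each HSPA gene in the summed FPKM of the 9 genes, in percent, as 1 stacked bar for each library. The red block of *Hspa2* is 14.02% to 16.9% of the bar in Control and 5.42% to 9.22% in cKO, and the blue block of *Hspa8* is 18.5% to 21.5% in Control and 24.4% to 27.7% in cKO.

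The partners of HSP70 were read from lists of co-chaperones, other chaperones, heat shock factors and ER stress genes. Of 118 genes tested in these lists, 36 (30.5%) were lower and 13 (11.0%) were higher, against 22.2% and 11.8% of all genes tested, and the median difference was -0.05 against -0.01. The higher genes numbered 5 without Control replicate 1, cKO replicate 1 or cKO replicate 3 and 6 without Control replicate 3, whereas the lower genes numbered 33 to 36 without any 1 library. The lower genes were spread unevenly over the lists, with 10 of 17 type A and B J-domain genes, 5 of 7 heat shock factors and their partners and 3 of 5 small heat shock protein genes, but 2 of 18 genes of HSP90 and its co-chaperones. Several of these lower genes had a cKO mean under 1 FPKM and passed the filter through Control only. Such genes, among them *Hspb9*, *Hspb7*, *Hsfy2*, *Hsbp1l1*, *Dnajb7* and *Dnajb8*, could not have been called higher. With a mean of at least 5 FPKM, 3 of the heat shock factors and their partners were lower. No test of the lists against each other was made.

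Among the J-domain genes of types A and B, 10 (58.8%) were lower, 1 (5.88%) was higher and the median difference was -0.54. The shares of all genes tested were 22.2% and 11.8%. *Dnajb3*, a testis J-domain gene, was at 109.6, 178.5 and 98.7 FPKM in Control and at 10.5, 7.08 and 10.9 FPKM in cKO (difference -3.60, limma BH-adjusted p = 6.8e-05). *Dnajb7* and *Dnajb8* were at 7.86 to 28.6 and 7.99 to 20.3 FPKM in Control and at 1.14% and 1.87% of the Control means in cKO, and *Dnajb7* was at 1.99% without Control replicate 2. Like *Hspa1l*, both were highest in Control replicate 2, at 3.25-fold and 2.39-fold the mean of the other Control libraries. Of the general HSP70 partners, *Dnajb1*, a heat-inducible J-domain gene, fell from 51.8 ± 2.40 to 35.4 ± 3.21 FPKM (SD, n = 3; difference -0.54, limma BH-adjusted p = 0.0032). *Dnaja1* rose from 32.5 ± 0.690 to 38.4 ± 1.49 FPKM (difference 0.23, limma BH-adjusted p = 0.028), a call that was lost in 8 of 15 alternative settings.

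Of the 26 type C J-domain genes tested, 6 (23.1%) were lower and 3 (11.5%) were higher, close to the 22.2% and 11.8% of all genes tested, with a median of -0.16. *Dnajc5b* and *Dnajc5g* encode relatives of the vesicle protein CSPα, which is encoded by *Dnajc5*. *Dnajc5b* was at 10.9, 37.1 and 12.5 FPKM in Control and was listed at 0.0505, 0 and 0 FPKM in cKO, and *Dnajc5g* fell from 20.6 ± 1.36 to 6.16 ± 0.838 FPKM (SD, n = 3). *Dnajc5* itself rose from 11.7 ± 0.363 to 15.8 ± 0.841 FPKM (difference 0.41, limma BH-adjusted p = 0.0061). The largest rise was that of *Dnajc12*, from 0.832 ± 0.151 to 2.84 ± 0.622 FPKM (difference 1.06, limma BH-adjusted p = 0.0027). *Dnajc15*, of the mitochondrial inner membrane, was at 39.4% of the Control mean, and *Dnajc11*, also mitochondrial, rose by 0.30, a call that was lost in 6 of 15 alternative settings, 5 of them with 1 library left out.

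The nucleotide exchange factors contained 4 lower (33.3%) and 0 higher genes among 12, with a median of -0.11. Of all genes tested, 22.2% were lower and 11.8% were higher. *Bag5* was at 43.1, 71.6 and 43.1 FPKM in Control and at 5.46, 6.40 and 5.46 FPKM in cKO, which was 11.0% of the Control mean (difference -2.95, limma BH-adjusted p = 6.4e-05). *Bag6*, whose product stabilises HSPA2 in spermatocytes, was at 87.0, 100.7 and 84.5 FPKM in Control and at 63.2, 48.4 and 54.9 FPKM in cKO, and fell by 0.70 (limma BH-adjusted p = 0.0040). *Bag1* fell by 0.49. The stress-inducible HSP110 gene *Hsph1* was at 15.3 to 18.3 FPKM in Control and at 18.6 to 20.1 FPKM in cKO, with groups apart, and did not pass the test (difference 0.20, limma BH-adjusted p = 0.11), although it passed under quantile normalisation (0.026) and with limma-voom (0.0499). *Hyou1*, the HSP110 form of the ER, was at 74.5 to 78.8 and 73.4 to 80.04 FPKM. Of the remaining HSP70 relatives, *Hspa14* rose from 18.8 ± 0.456 to 23.7 ± 0.251 FPKM (difference 0.32, limma BH-adjusted p = 0.0076), and *Hspa12a*, *Hspa12b* and *Hspa13* did not pass. The call of *Hspa14* was lost with the replicate number as a block in the model (limma BH-adjusted p = 0.055).

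HSP90 and its co-chaperones contained 3 higher (16.7%) and 2 lower (11.1%) genes among 18, against 11.8% and 22.2% of all genes tested. The cytosolic *Hsp90aa1* and *Hsp90ab1* differed by 0.05 (limma BH-adjusted p = 0.82) and 0.27 (limma BH-adjusted p = 0.093). *Hsp90ab1* passed without cKO replicate 2 (limma BH-adjusted p = 0.037), under quantile normalisation (0.023) and with limma-voom (0.042). *Trap1*, the mitochondrial HSP90, rose from 62.2 ± 1.33 to 80.4 ± 4.501 FPKM (SD, n = 3; difference 0.36, limma BH-adjusted p = 0.0061). The other rises, of *Unc45a* and *Fkbp5*, and the falls of *Sugt1* and *Ppid* were of 0.51, 0.32, -0.37 and -0.25, and these 4 calls were lost in 7 to 11 of the alternative settings.

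Among the 11 chaperonin genes, which encode the folding chambers of the cytosol and mitochondria, 3 (27.3%) were lower and 2 (18.2%) were higher. These counts stood near the shares of all genes tested, 22.2% lower and 11.8% higher. *Cct6b*, the testis form of a subunit of the cytosolic chamber, was at 32.2, 34.6 and 26.4 FPKM in Control and at 1.67, 1.97 and 1.58 FPKM in cKO, which was 5.60% of the Control mean (difference -3.54, limma BH-adjusted p = 4.0e-06). Its general counterpart *Cct6a* rose by 0.21. *Tcp1* and *Cct4*, other subunits of that chamber, fell by 0.49 and 0.41, and *Hspe1*, of the mitochondrial chamber, rose by 0.27. The rise of *Cct6a* was lost in 8, that of *Hspe1* in 7 and the fall of *Cct4* in 1 of 15 alternative settings.

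Small heat shock proteins hold unfolded clients until HSP70 takes them over. Of the 9 genes listed 5 were tested, and 3 (60%) were lower, against 22.2% of all genes tested. *Hspb9* and *Hspb7*, counted as lower, passed the filter through Control only. *Hspb9*, a testis form, was at 103.5, 116.1 and 92.1 FPKM in Control and at 1.05, 0.564 and 1.09 FPKM in cKO, which was 0.867% of the Control mean (difference -5.79, limma BH-adjusted p = 1.3e-06). *Hspb7* and *Hspb6* fell by 1.31 and 0.95. The call of *Hspb7* was lost under quantile normalisation (difference -0.64, limma BH-adjusted p = 0.11), and its level in Control replicate 2 was 2.62-fold the mean of the other Control libraries. *Hspb1* was at 5.19 to 6.12 FPKM in Control and at 16.5, 6.69 and 7.72 FPKM in cKO replicates 1 to 3, and the difference of 0.70 did not pass (limma BH-adjusted p = 0.11).

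The other heat shock factors and their partners had 5 lower and 0 higher genes among 7 tested, and a median of -0.71. Of all genes tested, 22.2% were lower and 11.8% were higher. *Hsfy2* and *Hsbp1l1*, counted as lower, passed the filter through Control only. *Hsf2*, which is active in spermatocytes, was at 5.57, 5.51 and 5.27 FPKM in Control and at 5.41, 5.87 and 5.71 FPKM in cKO, and did not pass the test (difference 0.05, limma BH-adjusted p = 0.71, 95% interval -0.16 to 0.25), although it passed under quantile normalisation (difference 0.34, limma BH-adjusted p = 0.021). *Hsf5*, a factor of pachytene spermatocytes, was at 18.1, 14.9 and 15.4 FPKM in Control and at 7.06, 6.45 and 6.60 FPKM in cKO, and fell by 1.15 (limma BH-adjusted p = 1.7e-04). *Hsfy2* was at 5.97, 15.4 and 5.48 FPKM in Control and at 0 in every cKO library, which was at least 63.0-fold lower when each cKO library was set to a floor of 3 fragments, and at least 40.3-fold lower without Control replicate 2. *Hsbp1*, whose product binds the trimerised HSF1, fell from 78.8 ± 8.38 to 47.7 ± 1.90 FPKM (SD, n = 3; difference -0.71, limma BH-adjusted p = 0.0011). *Hsf2bp* and *Hsbp1l1* fell by 0.70 and 1.23.

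**Figure D5:**
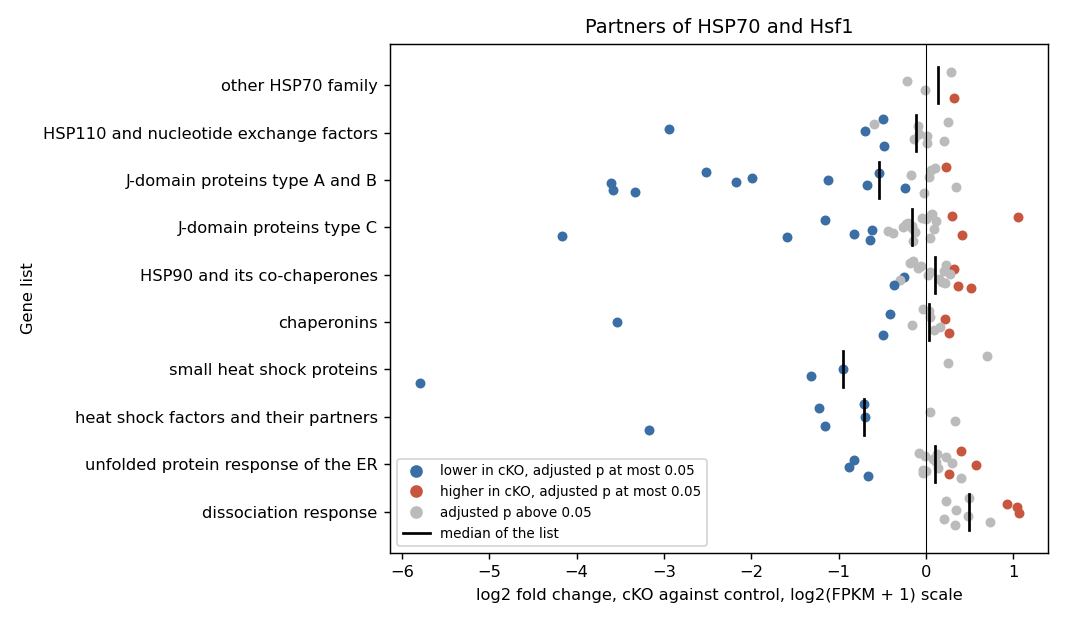
Difference between cKO and Control on the log2(FPKM + 1) scale for each gene tested in 10 lists, 1 point a gene, with blue for lower, red for higher and grey for an adjusted p above 0.05; the black bar is the median of a list. The lowest points are *Hspb9* at -5.79, *Dnajc5b* at -4.17, *Dnajb3* at -3.60, *Dnajb7* at -3.59 and *Cct6b* at -3.54, and the highest lie near 1.06.

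The unfolded protein response of the ER, in which HSPA5 is the central chaperone, was given by a list of 18 genes. Of these 3 (16.7%) were higher and 3 (16.7%) were lower, against 11.8% and 22.2% of all genes tested, and the median was 0.10. *Ern1*, a sensor of the response, rose from 11.9 ± 1.28 to 18.4 ± 3.27 FPKM (SD, n = 3; difference 0.58, limma BH-adjusted p = 0.017), a call that was lost in 2 of 15 alternative settings, among them without Control replicate 1 (limma BH-adjusted p = 0.054). *Atf4* and *Ppp1r15a* rose by 0.40 and 0.27, calls that were lost in 6 and 8 of 15 alternative settings. *Ddit3*, *Herpud1* and *Sdf2l1*, which lie further down the same response, fell by 0.82, 0.89 and 0.66.

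Genes whose profile over the 6 libraries was most like that of a member were found among 12310 protein-coding genes by the root mean square difference of log2(FPKM + 1), centred for each gene. For *Hspa2* these were *Pomt1*, *Rdh11* and *Ttc16* at differences of 0.0559, 0.0569 and 0.0688, against a median of 0.638 over all genes compared. For *Hspa1l* they were *Chn2*, *Tssk1* and *Ace* at 0.0545, 0.0603 and 0.0714, against a median of 1.52. All 3 were highest in Control replicate 2, as *Hspa1l* was, with *Tssk1* at 9.14, 26.4 and 10.5 FPKM in Control replicates 1 to 3. Likeness was measured over the same 6 libraries, so this shared peak follows from how the genes were picked. For *Hsf1* they were *Tuba3a*, *Cdk16* and *Drap1* at 0.0310, 0.0385 and 0.0403, against a median of 0.273. Each of them was lower in cKO by 0.31 to 0.41, which likewise follows from how they were picked. The call of *Tuba3a* was lost in 10 of 15 alternative settings.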

How the data were processed

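RNA-seq of STRA8+ cells was analysed from 1 table of 54532 genes and 6 libraries, grouped by genotype. The authors deposited FPKM and the gene length used. The submitters' processing notes name HISAT2 2.0.5 and mm10, whereas the counting tool, annotation and strand setting are not given in the sources used here. Fragments per gene were recovered from the smallest step of FPKM times length in each library (all values whole within 0.05). The denominators of the FPKM were 0.971 to 1.05 times the recovered sums. Gene models came from GENCODE M21, with exons and residues counted in the longest coding transcript of a gene, and start regions from RefSeq.

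Genes averaging 1 FPKM or more entered lmFit and eBayes with trend of limma 3.58.1 (R 4.3.3) on log2(FPKM + 1), cKO against Control, with BH adjustment over 15451 genes and a threshold of 0.05. This scale understates the change of low genes. Shares and ratios were compared by exact permutation (SciPy 1.17.1), and the ratios were not among the results planned beforehand. The scripts were tested on simulated data. Alternatives were a pseudocount of 0.1, no filter or 5 FPKM, median-of-ratios scaling, quantile normalisation, no trend, a replicate block, limma-voom on recovered fragments, recomputed FPKM and leaving out each library, where a test without 1 library rests on 2 against 3. FPKM folds of group means without 1 library were added after the data were seen. Named were the members, *Srsf1*, up to 3 genes per list and direction with groups apart, 9 genes set by name and the 3 most alike genes. Other genes named (*Cdk1*, *Ccnb2*, *Cdc25c*, *Hspb1*, *Hsbp1*, *Hsf2bp*, *Hspa12a*, *Hspa12b*, *Hspa13*, *Stra8*, *Pgk2*, *Adam3*, *Gm10501* and *Gm26825*) were chosen after their values were seen. The members and lists were chosen with earlier results of these data known.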

Additional observations from a re-analysis of the deposited data

How the results depend on the processing

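Across 15 alternatives *Hspa2*, *Hspa1l* and *Hspa4l* remained lower, from -1.29 to -1.06, from -4.02 to -2.41 and from -0.85 to -0.71. *Hsf1* lost its call under quantile normalisation (-0.10) and with the replicate block (-0.34, limma adjusted p = 0.095), and was -0.38 to -0.29 when 1 library was left out. *Hspa1b* passed under quantile normalisation (0.92) and ranged from 0.38 to 0.84 without 1 library. *Hspa5* was -0.11 to 0.14 without 1 library, and *Hsp90aa1* and *Hyou1*, which did not pass either, ranged from -0.078 to 0.17 and from -0.014 to 0.047 without 1 library. Members higher numbered 1 under quantile normalisation and 0 to 1 without 1 library, where members lower numbered 3 to 4. Of all genes, 1821 were higher, 5164 under quantile normalisation, 891 with the replicate block and 965 to 1752 without 1 library, whereas 3437 were lower and 1950 with a mean of at least 5 FPKM. Genes higher in the chaperone lists numbered 13, and 33 under quantile normalisation, 7 without the trend, 4 with the replicate block, 21 with limma-voom on recovered fragments and 5 to 10 without 1 library. With *Hspa5* and *Hspa9* left out of the sum, the shares differed by 0.227 (*Hspa1a*), 0.997 (*Hspa1b*), -2.32 (*Hspa1l*), -16.5 (*Hspa2*), 2.17 (*Hspa4*), -2.71 (*Hspa4l*) and 18.2 (*Hspa8*) percentage points, by construction of a smaller sum, and from fragments without length scaling those of *Hspa2* and *Hspa4l* differed by -5.11 and -3.98. The cause of the other changes was not tested.

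Replicate numbers were shared by both groups but did not pair the libraries. Deviations from the group means correlated at -0.0014, -0.11 and 0.02 across genes for the same-numbered pairs, and not every library was most like its own number. With the replicate block, 3 of 10 members were lower, and no call of a member other than *Hsf1* changed. Among other genes named, *Hspa14* and *Cct4* lost their call in this setting alone.

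The spread of *Hspa8* and *Hspa1a* between libraries (SE 0.15 and 0.28) left intervals that include 0, and 22 to 24 fragments stood behind *Hspa1l* in cKO cells. Intervals and floors cover counting error and the spread of these libraries only. Of the 59 genes other than members that the naming rule gave, 54 passed, of which 6 of 17 higher and 32 of 37 lower genes kept their call in all alternatives, and 3 of the 5 that did not pass (*Hsp90ab1*, *Hsph1* and *Hsf2*) passed in at least 1. The genes named outside that rule are not in these counts.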

Other observations

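Immediate-early genes respond within minutes to cell isolation as well as to other stimuli, and were listed as a sign of handling. Of the 10 genes, 3 were higher and 0 lower in cKO cells, against 11.8% and 22.2% of all genes tested, and the median difference was 0.49. Without Control replicate 2, 5 were higher. *Fos* was at 9.14, 12.4 and 8.36 FPKM in Control and at 24.8, 19.1 and 20.4 FPKM in cKO replicates 1 to 3 (difference 1.05, limma BH-adjusted p = 0.0027). *Egr1* was at 9.03, 11.8 and 10.8 FPKM in Control and at 25.2, 17.7 and 20.4 FPKM in cKO (difference 0.93, limma BH-adjusted p = 0.0033). *Ier2* rose by 1.06 (limma BH-adjusted p = 0.0027). The list summed to 78.8 to 132.7 FPKM in Control and to 144.8 to 174.3 FPKM in cKO, with the highest sum in cKO replicate 1, where *Hspa1a* and *Hspa1b* were also highest. Sertoli markers in that library were 2.16-fold the mean of the other cKO libraries. Among Control libraries, replicate 2 was highest for 9 of the 10 genes, and its sum was 1.46-fold the mean of the others. Peritubular and endothelial markers were at 7.32 to 9.74 FPKM in Control and 11.02 to 14.5 FPKM in cKO. The part of these cells and of Sertoli cells in the values of the list was not tested. A part of handling in the values of *Hspa1a* and *Hspa1b* was not tested.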
